A study of Mus musculus with 8 samples.

Results

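Expression of 9 genes of the JAK-STAT cytokine pathway and its feedback loop was examined in mouse bone marrow-derived macrophages (BMDM) that carried or lacked miR-155. The genes were the kinase Jak2, the transcription factors Stat2, Stat4, Stat5a, Stat5b and Stat6, and the feedback inhibitors Socs1, Socs2 and Cish, out of 18183 genes with a probe set of their own. They were chosen by name. A probe set was used where the array annotation gave it to 1 of these genes alone, which left 19 of the 45008 probe sets tested, and each gene was read on its brightest probe set (highest mean over 8 arrays) with the others as a check. RNA was measured on Affymetrix mouse genome arrays, and values are log2 signals after robust multi-array averaging (RMA), so that a difference of 1 is a 2-fold change.

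The 8 arrays formed 4 groups of 2. These were miR-155-/-(LPS + IL-10), miR-155-/-(LPS), WT(LPS + IL-10) and WT(LPS). All animals were C57Bl/6, and the knockout removed miR-155 from every tissue of the mouse. Marrow of 2 miR-155-/- and 2 wild type (WT) donors had been frozen and was then grown for 7 days in medium with 15% L929 supernatant, a source of the macrophage growth factor M-CSF. Every culture received 100 ng/ml lipopolysaccharide (LPS), a bacterial cell wall component, for 24 h, and the LPS + IL-10 cultures received 20 ng/ml of the anti-inflammatory cytokine IL-10 from 5 min before LPS. No unstimulated culture was analysed, so the values do not show what LPS itself did. The miR-155-/- donors were labelled male and the WT donors female, so that genotype and sex cannot be told apart. The arrays measured bulk RNA, in which fewer cells of a type and less RNA per cell cannot be told apart.

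JAK kinases sit on the inner side of cytokine receptors and, when a ligand joins the receptor chains, add phosphate to STAT proteins, which then pair, enter the nucleus and bind DNA. STAT2 works with IRF9 in the ISGF3 complex that type I interferon activates, STAT4 answers to IL-12, STAT5A and STAT5B to growth factors such as GM-CSF, and STAT6 to IL-4 and IL-13, while IL-10 itself signals through JAK1, TYK2 and STAT3. SOCS1, SOCS2 and CIS (the product of Cish) are induced by STATs and damp the same receptors, and the Socs1 messenger is a known target of miR-155.

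The miRNA deleted in the mutant is shown because the genotypes differ in it, and promoter stretches of 4 of the genes are shown for where letters of a STAT site are present or absent, which no value measured here was tied to. The mature mmu-miR-155-5p lies at chr16:84714143-84714165 on the plus strand, and its seed (bases 2 to 8) is in capitals.
mmu-miR-155-5p: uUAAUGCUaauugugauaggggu
Promoter windows came from RefSeq (GRCm38.p6), 250 bases before and 50 bases from a gene's start, and were found for 8 of the 9 genes, in 11 windows. Both strands were searched for the ISRE letters GAAA-NN-GAAA, the site of ISGF3 and of interferon regulatory factors, which were in 3.44% of 32851 such windows, and for the GAS letters TTCNNNGAA, the site of paired STATs, which were in 8.3%. The 2 motifs did not overlap in these windows. Stat2 (chr10:128270248-128270547, plus strand) held 1 ISRE match, in capitals, that began at position -222 from the start. Jak2 (chr19:29251553-29251852, plus strand) held neither run of letters and is shown for comparison.
Stat2: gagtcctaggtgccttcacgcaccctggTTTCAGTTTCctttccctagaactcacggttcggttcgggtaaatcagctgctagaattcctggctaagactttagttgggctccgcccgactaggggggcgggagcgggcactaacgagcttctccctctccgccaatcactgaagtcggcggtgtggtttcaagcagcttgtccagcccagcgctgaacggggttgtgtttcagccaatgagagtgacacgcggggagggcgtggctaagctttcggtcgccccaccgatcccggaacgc
Jak2: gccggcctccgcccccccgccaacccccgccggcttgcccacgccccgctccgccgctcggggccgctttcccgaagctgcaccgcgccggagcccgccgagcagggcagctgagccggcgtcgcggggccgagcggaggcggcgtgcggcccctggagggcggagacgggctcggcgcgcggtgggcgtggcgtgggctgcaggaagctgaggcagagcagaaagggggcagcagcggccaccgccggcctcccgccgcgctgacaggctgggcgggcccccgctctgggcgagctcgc
Socs1 (chr16:10785583-10785642, minus strand) held 2 overlapping ISRE matches, and Cish (chr9:107296638-107296697, plus strand) held 2 GAS matches. A stretch of 60 bases around each is given, with the matches in capitals.
Socs1: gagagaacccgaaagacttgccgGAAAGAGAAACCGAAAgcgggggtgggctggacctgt
Cish: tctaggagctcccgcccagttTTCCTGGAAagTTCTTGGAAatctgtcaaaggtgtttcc
The Stat4 window further downstream held 1 ISRE match, and the windows of Stat5a, Stat5b and Stat6 held none of either motif. These are matches of letters in 300 bases and not measured binding.

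All 10 macrophage markers, among them Csf1r, Adgre1 and Cd68, had a mean log2 value above 6, and their median stayed between 12.46 and 12.68 on the 8 arrays. The medians of other marker lists ranged over the arrays from 2.49 to 3.43 for T and NK cells, 2.60 to 3.21 for B cells, 2.70 to 3.27 for dendritic cells, 2.54 to 3.32 for neutrophils and 2.52 to 2.96 for mast cells, basophils and erythroid cells. Signals of different probe sets cannot be set against each other, so these ranges show only how each list varied between arrays. One WT donor stood apart. The median of 12 fibroblast and stromal markers was 9.29 on the LPS + IL-10 array and 9.26 on the LPS array of WT donor 1, and 3.14 to 4.80 on the other 6 arrays. A call of a pathway gene that was lost or gained without this donor is given beside its result. The marker genes were not fitted without it. Changes with IL-10 within miR-155-/- cells do not use this donor's values, so their size stayed the same without it. A call lost there went with fewer arrays and no donor block in the fit. In miR-155-/-(LPS) against WT(LPS) 11 of the 12 stromal markers had fold changes below 0, and the exception, Lum, was higher, by 2.57 (adjusted p = 0.0125). Of 9 neutrophil markers, Mmp8, S100a8 and S100a9 were lower in miR-155-/-(LPS) against WT(LPS), by 2.40, 1.17 and 3.12 on the log2 scale (adjusted p 0.0463, 0.014 and 0.0153 in the limma fit), where 0.513% of all probe sets were lower, although macrophages also express the pair of S100 genes. S100a8 was higher by 1.59 with IL-10 in miR-155-/- cells (adjusted p = 0.00261), where 1.26% of all probe sets were higher. There only 3 of the 9 neutrophil markers had fold changes above 0, with a list median of -0.05. S100a9 changed by -0.27 and -0.95 in the miR-155-/- donors. Between genotypes with IL-10 S100a9 differed by -4.44 (adjusted p = 0.0186), where 0.0333% of all probe sets were lower. The part of either marker set in the results was not tested.

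In the limma fit over all arrays and probe sets (Benjamini-Hochberg adjusted p under 0.05), 2 of the 9 genes rose in miR-155-/-(LPS) against WT(LPS), Jak2 and Stat2, where 0.951% of all probe sets rose. The same pair fell with IL-10 in miR-155-/- cells, where 1.42% of all probe sets fell. These comparisons share the miR-155-/-(LPS) arrays. With IL-10 in WT cells 0 of the 9 passed, where 0.0311% of probe sets did in either direction. Between genotypes with IL-10 0 passed, where 0.0711% did, and 0 in the difference between the 2 IL-10 effects, where 0.0333% did. At an unadjusted p under 0.05 these 3 comparisons took in 2, 1 and 1 of the 9 genes, against 9.27%, 8.95% and 10.4% of all probe sets. The same limit took in 3 genes in miR-155-/-(LPS) against WT(LPS) and 5 with IL-10 in miR-155-/- cells, against 13.8% and 17.3% of probe sets.

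By separation of groups alone, 6 of the 9 genes did not overlap in miR-155-/-(LPS) against WT(LPS) (Jak2, Stat2, Stat6 and Socs1 higher, Stat5b and Socs2 lower), where 46.5% of all probe sets did not. With IL-10 in miR-155-/- cells 5 did not overlap with LPS alone (Stat5a and Stat5b higher, Jak2, Stat2 and Stat6 lower), where 47.9% of probe sets did not. With IL-10 in WT cells 3 did not (Stat5a and Stat5b higher, Stat2 lower), against 32.8% of probe sets. Between genotypes with IL-10 3 did not (Jak2, Stat2 and Cish higher in miR-155-/- cells), against 38.9%. The median log2 fold change of the 9 genes was 0.32 in miR-155-/-(LPS) against WT(LPS), where that of all genes was 0.03, and between -0.06 and 0.14 in the other 3 comparisons of groups. With 2 arrays a group, the number of arrays limits the precision of all these values.

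**Figure D1:**
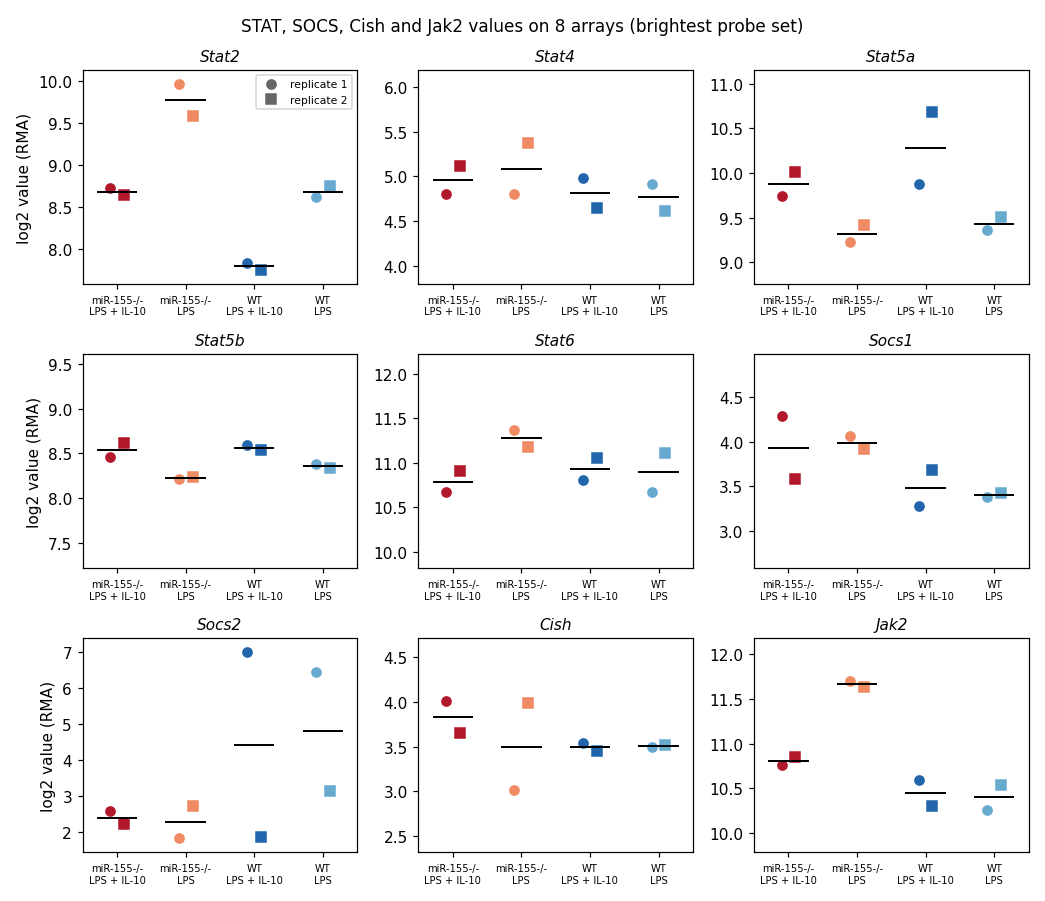
Log2 RMA value of the 9 genes on 8 arrays (brightest probe set), by group, with circles for replicate 1, squares for replicate 2 and a bar for the group mean. Stat2 and Jak2 were highest on both miR-155-/-(LPS) arrays, and Socs2 was high on the 2 arrays of WT donor 1 alone, at 7.00 and 6.45.

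**Figure D2:**
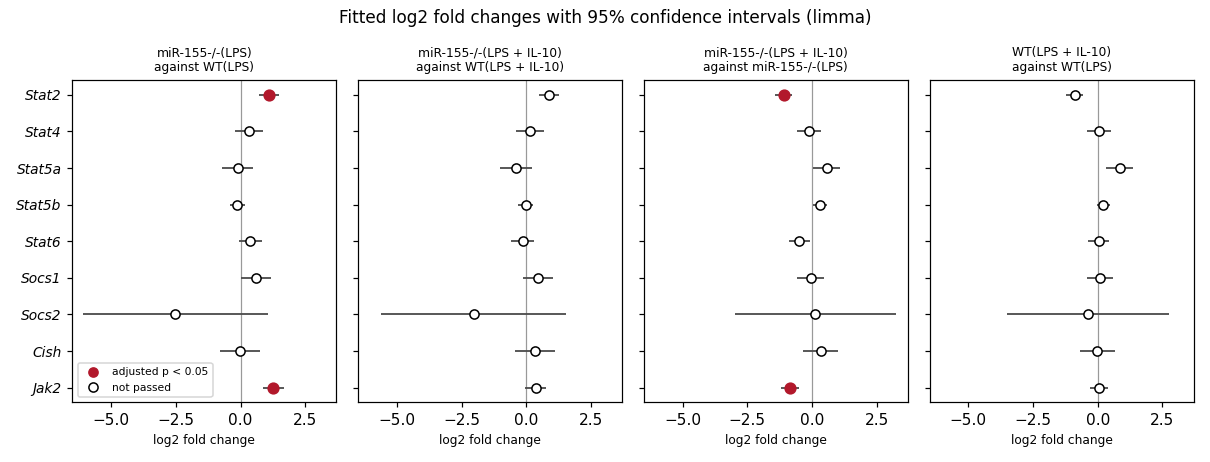
Fitted log2 fold change (points) with its 95% confidence interval (lines) of the 9 genes in 4 comparisons of groups, with filled red points for an adjusted p under 0.05 and open points for the rest. Jak2 and Stat2 passed between genotypes in LPS (first panel) and with IL-10 in miR-155-/- cells (the third panel), and the Socs2 intervals were the widest.

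Jak2, the kinase of the GM-CSF, growth hormone, IL-12 and interferon-gamma receptors, had log2 values of 11.70 and 11.63 in miR-155-/-(LPS) BMDM, against 10.26 and 10.54 in WT(LPS) BMDM. Both miR-155-/- arrays lay above both WT arrays. The difference was 1.27 ± 0.17 (SE; 2.40-fold, adjusted p = 0.0231). With IL-10 the values were 10.76 and 10.85 in miR-155-/- cells, against 10.59 and 10.30 in WT cells, groups that did not overlap but differed by only 0.36 ± 0.17 (adjusted p = 0.595).

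Within miR-155-/- cells Jak2 fell by 0.86 with IL-10 (SE 0.15, 1.82-fold, adjusted p = 0.0355), in both donors (-0.94 and -0.78). This call was lost with donor as a fixed block (adjusted p = 0.0573) and with no block (adjusted p = 0.0693). In WT cells the change with IL-10 was 0.04 ± 0.15 (adjusted p = 0.954) and ran opposite ways in the 2 donors (0.32 and -0.24). The difference between the 2 IL-10 effects, miR-155-/- minus WT, was -0.90 (95% interval -1.40 to -0.41, adjusted p = 0.307), which did not pass.

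The second Jak2 probe set was also highest on both miR-155-/-(LPS) arrays, by a wider gap. Its values were 9.55 and 9.35 in miR-155-/-(LPS), against 7.48 and 7.68 in WT(LPS), a difference of 1.87 ± 0.16 (adjusted p = 0.00613). With IL-10 they were 8.03 and 7.96 in miR-155-/- cells, against 7.58 and 7.29 in WT cells. On this probe set Jak2 fell by 1.45 on the log2 scale with IL-10 in miR-155-/- cells (SE 0.14, adjusted p = 0.00547), and its change in WT cells was -0.15 ± 0.14 (adjusted p = 0.777). The difference between the IL-10 effects was -1.31 ± 0.20 (adjusted p = 0.171), which did not pass on this probe set either.

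Without WT donor 1, the donor with high stromal markers, and with the lone WT array of each treatment assumed to vary as the other groups did, the Jak2 difference in LPS was 1.13 (adjusted p = 0.068) and the fall with IL-10 in miR-155-/- cells kept its size (adjusted p = 0.0443). As each array was left out in turn, the difference in LPS stayed between 1.10 and 1.43 but passed in 2 of 8 fits, those without a WT(LPS + IL-10) array, and the fall with IL-10 passed in 4 of 8, those without a WT array.

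The other 3 kinases of the family were measured as well. Tyk2, which pairs with Jak1 or Jak2 on interferon and IL-12 receptors, had values of 8.81 and 8.54 in miR-155-/-(LPS), against 7.72 and 8.02 in WT(LPS), a difference of 0.81 ± 0.18 that did not pass (adjusted p = 0.0901). With IL-10 in miR-155-/- cells, at 7.97 and 7.78, Tyk2 fell by 0.80 (SE 0.15, adjusted p = 0.0477), a call that no fit with 1 array left out kept. The call was also lost in the smaller fit without WT donor 1, which has no part in this fall, and its size was unchanged. The WT(LPS + IL-10) arrays read 7.86 and 8.20. Jak1, which serves most receptors of the pathway, ranged only from 9.73 to 9.92 over the 8 arrays, and Jak3, the kinase of receptors with the common gamma chain, from 4.64 to 5.42. Of the 5 other JAK, STAT and ISGF3 genes measured, Tyk2 alone passed in any comparison.

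**Figure D3:**
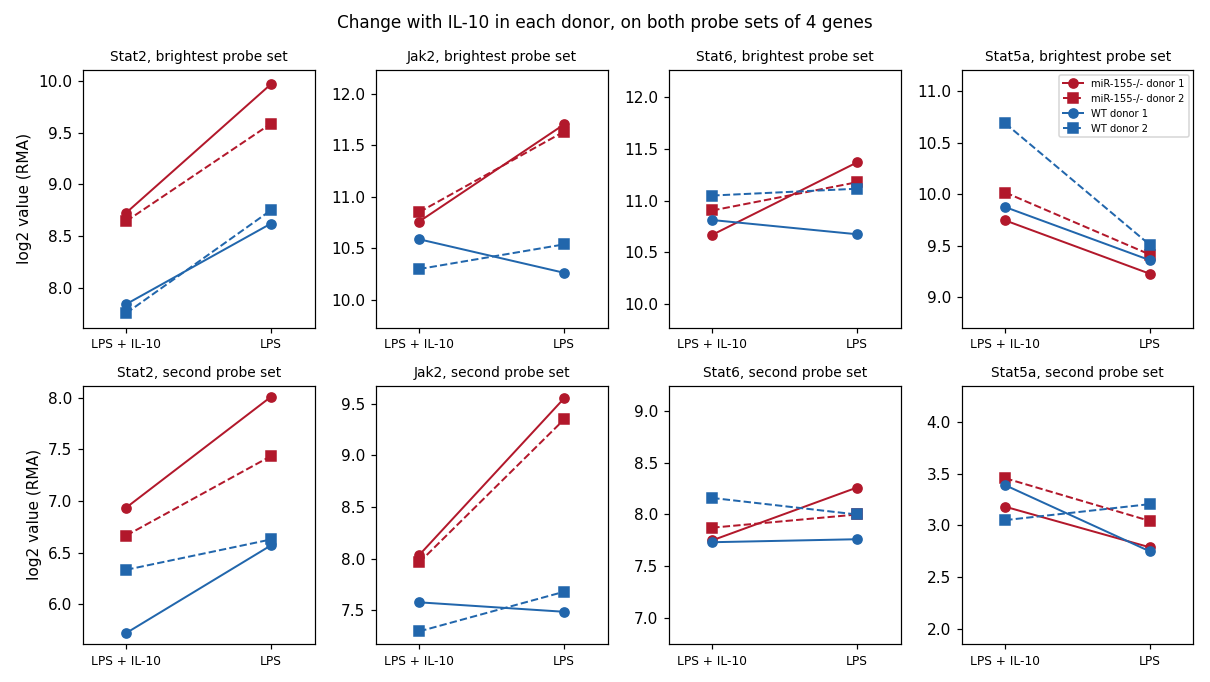
Log2 RMA value with LPS + IL-10 (left) and LPS (right) in each donor, for the brightest (top) and second (bottom) probe sets of 4 genes, with miR-155-/- donors in red and WT donors in blue. Stat2 was lower with IL-10 in all 4 donors on both probe sets, Jak2 was lower in both miR-155-/- donors on both, and Stat5a was higher in all 4 donors on its brightest probe set only.

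Stat2, the STAT of the interferon-activated ISGF3 complex, had log2 values of 9.97 and 9.59 in miR-155-/-(LPS) BMDM, against 8.62 and 8.75 in WT(LPS) BMDM. The groups did not overlap, and the difference was 1.10 ± 0.16 (2.14-fold, adjusted p = 0.0297). With IL-10 the values were 8.73 and 8.64 in miR-155-/- cells, against 7.84 and 7.75 in WT cells. These groups did not overlap either, and the difference of 0.89 ± 0.16 was close in size but did not pass (adjusted p = 0.167).

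IL-10 went with lower Stat2 in all 4 donors. The change was -1.25 and -0.95 in the miR-155-/- donors and -0.78 and -0.999 in the WT donors. In miR-155-/- cells Stat2 fell by 1.10 (SE 0.14, 2.14-fold, adjusted p = 0.013). In WT cells the change was -0.89 ± 0.14 (adjusted p = 0.126), which did not pass over all probe sets. The IL-10 effects differed by -0.21 (95% interval -0.68 to 0.26, adjusted p = 0.746). The values in miR-155-/-(LPS + IL-10) cells, 8.73 and 8.64, thus lay beside those of WT(LPS) cells, 8.62 and 8.75, and the genotypes did not overlap with or without IL-10.

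On the second Stat2 probe set the values were 8.01 and 7.44 in miR-155-/-(LPS), against 6.57 and 6.63 in WT(LPS), a difference of 1.12 ± 0.26 (adjusted p = 0.0996). They were 6.94 and 6.67 in miR-155-/-(LPS + IL-10), against 5.72 and 6.33 in WT(LPS + IL-10). This probe set was likewise highest in miR-155-/-(LPS) and lowest in WT(LPS + IL-10) but passed in no comparison, and its change with IL-10 in miR-155-/- cells was -0.92 ± 0.22 (adjusted p = 0.0892). Without WT donor 1 the Stat2 difference in LPS was 1.03. The fall in miR-155-/- cells, in which that donor has no part, kept its size. Neither passed in this smaller fit. The difference in LPS was between 0.92 and 1.28 with 1 array left out and passed in 0 of 8 fits, and the fall passed in 5 of 8.

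Of 11 measured genes that ISGF3 is known to induce, 4 rose in miR-155-/-(LPS) against WT(LPS), namely Irf7, Ifit1, Mx1 and Oasl1, where 0.951% of all probe sets rose. All 11 fold changes were above 0, with a list median of 1.13 against 0.03 over all genes. With IL-10 in miR-155-/- cells 6 fell (those 4 with Ifit2 and Ifit3), where 1.42% of all probe sets fell, with a list median of -1.29. With IL-10 in WT cells 1 fell, Ifit1, where 0.0222% of all probe sets fell, with a list median of -1.63. The median over all genes was -0.0033 in both of these comparisons. Between genotypes with IL-10 0 passed in limma, where 0.0711% of all probe sets did, and the list median was 1.61. At an unadjusted p under 0.05 this comparison took in 10 of 11, against 8.95% of all probe sets. The 4 rises passed in 0 to 4 of 8 fits each with 1 array left out, and the 6 falls in 1 to 5. Without WT donor 1 the rises were 1.06 for Irf7, 0.88 for Ifit1, 2.24 for Mx1 and 1.67 for Oasl1. The 6 falls in miR-155-/- cells, in which that donor has no part, kept their size. In this smaller fit the calls of the rises of Irf7, Ifit1 and Oasl1 and of the fall of Ifit2 were lost.

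Mx1, an antiviral GTPase, had log2 values of 11.69 and 11.30 in miR-155-/-(LPS), against 8.72 and 9.25 in WT(LPS). It read 9.16 and 8.79 in miR-155-/-(LPS + IL-10), against 6.43 and 7.77 in WT(LPS + IL-10). The lowest pair was thus WT(LPS + IL-10) and the highest miR-155-/-(LPS), as for Stat2. The difference between genotypes in LPS was 2.50 ± 0.40 (adjusted p = 0.0378). Ifit1, an antiviral RNA-binding protein, was 10.79 and 10.65 with IL-10 in miR-155-/- cells, against 12.06 and 11.97 without it. In WT cells it was 8.90 and 9.31 with IL-10, against 10.65 and 11.13 without it. It fell by 1.29 in miR-155-/- cells (adjusted p = 0.0144) and by 1.78 in WT cells (adjusted p = 0.0472). The WT call was lost with any 1 of the 8 arrays left out, and also without WT donor 1, where the change was -1.82.

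Irf9, Ifnar1, Ifnb1 and Usp18 passed in no comparison. Irf9, the DNA-binding partner of STAT2 in ISGF3, was 9.54 and 9.57 in miR-155-/-(LPS), against 9.20 and 9.35 in WT(LPS), a difference of 0.28 ± 0.12 (adjusted p = 0.391). Ifnar1, a chain of the type I interferon receptor, ranged from 9.86 to 10.46, and Ifnb1, the interferon itself, from 2.80 to 3.47. Usp18, which blocks the interferon receptor, was 12.37 and 12.21 in miR-155-/-(LPS), against 11.28 and 11.39 in WT(LPS), and its difference of 0.96 ± 0.25 did not pass (adjusted p = 0.141).

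Stat5a and Stat5b, near-identical STATs used by GM-CSF and many other cytokines, were read higher with IL-10 in every donor on their brightest probe sets, but neither passed over all probe sets. Stat5a was 9.75 and 10.02 with IL-10 in miR-155-/- cells, against 9.23 and 9.41 with LPS alone. It was 9.87 and 10.69 in WT(LPS + IL-10), against 9.36 and 9.51 in WT(LPS). In neither genotype did the treatments overlap. The difference was 0.56 ± 0.22 in miR-155-/- cells (adjusted p = 0.264) and 0.85 ± 0.22 in WT cells (adjusted p = 0.329), where the larger change, 1.18 against 0.52, was in WT donor 2. The second Stat5a probe set was read at 2.75 to 3.46 and gave 1 donor of 4 the other sign.

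Stat5b was 8.46 and 8.61 with IL-10 in miR-155-/- cells, against 8.21 and 8.23 with LPS alone, and 8.59 and 8.53 in WT(LPS + IL-10), against 8.38 and 8.33 in WT(LPS). The treatments did not overlap in either genotype, and the difference was 0.31 ± 0.11 in miR-155-/- cells (adjusted p = 0.206) and 0.21 ± 0.11 in WT cells (adjusted p = 0.59). The second Stat5b probe set ran the other way in miR-155-/- cells, at -0.22 ± 0.16 (adjusted p = 0.569). Between genotypes in LPS the brightest probe sets differed by -0.11 ± 0.26 for Stat5a and -0.13 ± 0.12 for Stat5b, intervals that included 0 (-0.72 to 0.50 and -0.43 to 0.16).

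Among 11 genes known as targets of STAT5, not all of them induced by it, 1 passed in 1 comparison. This was with IL-10 in miR-155-/- cells, where 1.42% of all probe sets fell. Pim2, a survival kinase, was 5.65 and 5.57 with IL-10 in miR-155-/- cells, against 6.90 and 7.19 with LPS alone, and fell by 1.44 (SE 0.22, adjusted p = 0.0251), a call kept in 2 of 8 fits with 1 array left out. It was 5.48 and 4.72 in WT(LPS + IL-10), against 5.72 and 5.75 in WT(LPS). The list median was 0.06 with IL-10 in miR-155-/- cells and 0.12 in WT cells. Csf2rb, the signalling chain of the GM-CSF receptor, ranged from 11.60 to 11.94 and passed in no comparison.

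Stat6, the STAT of IL-4 and IL-13, was 11.37 and 11.18 in miR-155-/-(LPS), against 10.67 and 11.12 in WT(LPS). The groups did not overlap, but their nearest arrays lay close (11.18 and 11.12), and the difference of 0.38 ± 0.19 did not pass (adjusted p = 0.456). With IL-10 the values were 10.67 and 10.90 in miR-155-/- cells, against 10.81 and 11.05 in WT cells. The change with IL-10 in miR-155-/- cells was -0.49 ± 0.17 (adjusted p = 0.198), with both donors lower, and in WT cells 0.04 ± 0.17 (adjusted p = 0.967). The second Stat6 probe set gave 0.25 ± 0.19 between genotypes in LPS and -0.32 ± 0.16 with IL-10 in miR-155-/- cells.

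Of 27 cytokine receptor genes measured, 3 rose and 1 fell with IL-10 in miR-155-/- cells, where 1.26% of all probe sets rose and 1.42% fell. Il4ra and Il13ra1, whose products form the IL-13 receptor, were 2 of the 3. Il4ra, the receptor chain for IL-4 and IL-13, was 10.96 and 11.44 with IL-10 in miR-155-/- cells, against 8.54 and 9.08 with LPS alone, and rose by 2.39 (SE 0.23, adjusted p = 0.00489). It was 11.45 and 11.41 in WT(LPS + IL-10), against 9.88 and 9.31 in WT(LPS), a difference of 1.83 ± 0.23 (adjusted p = 0.0725). Il13ra1, its partner in the IL-13 receptor, rose by 1.13 in miR-155-/- cells (SE 0.21, adjusted p = 0.0453), with 0.91 ± 0.21 in WT cells (adjusted p = 0.274). These rises passed in 7 of 8 fits with 1 array left out for Il4ra, and in 2 of 8 for Il13ra1. The Il13ra1 call was lost in the smaller fit without WT donor 1, which has no part in this rise, and its size was unchanged. The other Il13ra1 probe sets changed in the miR-155-/- donors by 1.56 and 1.23, -0.36 and 0.60, 0.05 and 0.57, and 0.09 and 0.11. Between genotypes in LPS the Il13ra1 difference was -1.22 (adjusted p = 0.0728), which did not pass. The ligands Il4 and Il13 were read at 1.89 to 2.46 and 1.81 to 2.25 on the 8 arrays.

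Of 15 genes known to be induced through STAT6, only Mrc1 passed. This mannose receptor was 9.003 and 9.92 in miR-155-/-(LPS), against 12.25 and 12.10 in WT(LPS), and fell by 2.71 (SE 0.28, adjusted p = 0.0101). With IL-10 in miR-155-/- cells it was 12.07 and 12.22 and rose by 2.68 against LPS alone (SE 0.24, adjusted p = 0.00441). Mrc1 was 12.58 and 12.69 in WT(LPS + IL-10), 0.46 ± 0.24 above WT(LPS) (adjusted p = 0.59). Mrc1 was low in the same 2 arrays in which Stat6 read highest, a Stat6 difference that did not pass, and a link was not tested. Its rise with IL-10 passed in all 8 fits with 1 array left out, and its lower level in LPS in 6 of 8. Without WT donor 1 the difference in LPS was -2.63 (adjusted p = 0.0751). The difference between its IL-10 effects was 2.22 (adjusted p = 0.171), and Arg1, another gene of the list, differed by -2.24 ± 0.66 in LPS (adjusted p = 0.187).

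**Figure D4:**
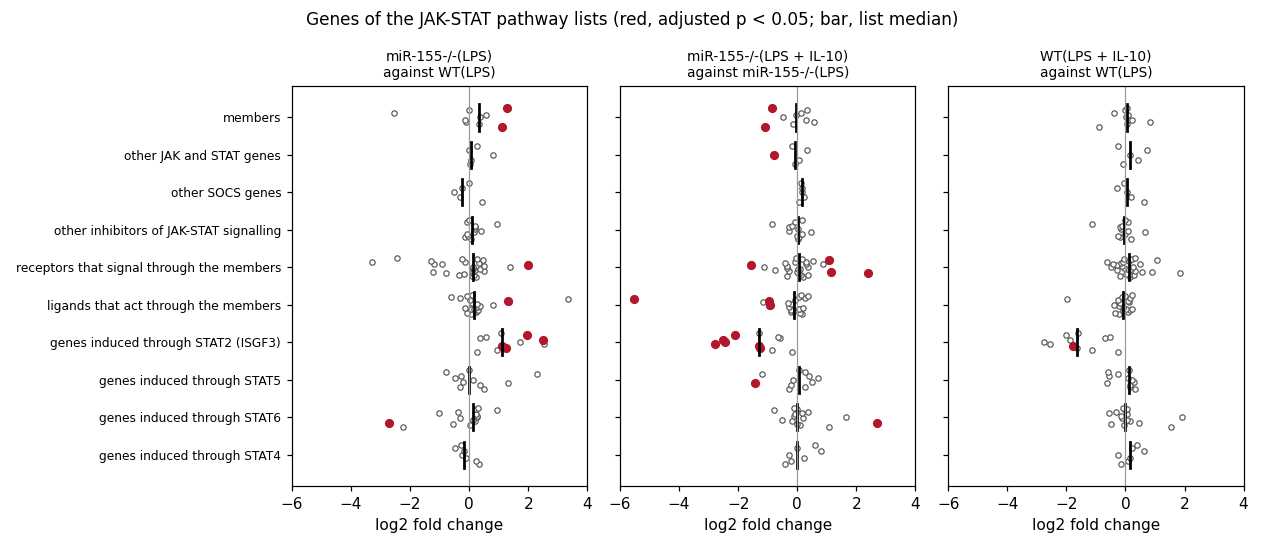
Log2 fold change of each measured gene (points, brightest probe set) of 10 gene lists in 3 comparisons, with genes past an adjusted p of 0.05 in red and list medians as bars. The ISGF3-induced genes lay above 0 in miR-155-/-(LPS) against WT(LPS) and below 0 with IL-10 in both genotypes.

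Stat4, the STAT of IL-12 and best known from T and NK cells, was read low on all arrays. With IL-10 it was 4.80 and 5.12 in miR-155-/- cells, against 4.98 and 4.65 in WT cells. With LPS alone it was 4.80 and 5.38 in miR-155-/- cells, against 4.92 and 4.61 in WT cells. All 4 groups overlapped, and no comparison gave an unadjusted p under 0.05. The largest difference was 0.32 ± 0.23, in miR-155-/-(LPS) against WT(LPS) (adjusted p = 0.594, 95% interval -0.21 to 0.85). Of 7 genes known to be induced through STAT4, 0 passed in limma in the 5 comparisons. At most 3 had an unadjusted p under 0.05, with IL-10 in miR-155-/- cells, where 17.3% of all probe sets did.

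The IL-12 subunit gene Il12b, whose product acts through STAT4, was 5.09 and 5.28 in miR-155-/-(LPS), against 3.82 and 3.90 in WT(LPS), and rose by 1.33 (SE 0.21, adjusted p = 0.0347). With IL-10 it was 3.93 and 4.51 in miR-155-/- cells and fell by 0.97 (SE 0.18, adjusted p = 0.043), and it was 3.82 and 4.09 in WT(LPS + IL-10). In miR-155-/-(LPS) it was thus above all other arrays. With 1 array left out the difference in LPS passed in 2 of 8 fits and the change with IL-10 in 0 of 8. Without WT donor 1 the difference in LPS was 1.29, and the change with IL-10, in which that donor has no part, kept its size. Both calls were lost in that smaller fit. A second, less bright Il12b probe set changed further with IL-10 in the miR-155-/- donors, by -3.22 and -3.16. In the WT donors it changed by 0.28 and -0.61.

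Of 21 ligands measured, 2 others passed, Il15 and Il6, both lower with IL-10 in miR-155-/- cells, where 1.42% of all probe sets fell. Il15, a cytokine that signals through STAT5, was 7.92 and 7.79 with IL-10 in miR-155-/- cells, against 8.96 and 8.60 with LPS alone, and fell by 0.92 (SE 0.14, adjusted p = 0.0215). In WT cells Il15 was 7.49 and 7.69 with IL-10, against 7.96 and 7.97 without it. Its receptor gene Il15ra was 7.67 and 6.75 in miR-155-/-(LPS), against 5.22 and 5.20 in WT(LPS), and rose by 2.00 (SE 0.30, adjusted p = 0.0303). It was 5.95 and 5.35 with IL-10 in miR-155-/- cells, where it fell by 1.56 (SE 0.26, adjusted p = 0.0307). The miR-155-/-(LPS) arrays were thus the highest for both the ligand and its receptor gene. Il6, which signals mainly through STAT3, was 4.23 and 4.75 with IL-10 in miR-155-/- cells, against 9.93 and 10.12 with LPS alone, and fell by 5.54 (SE 0.87, adjusted p = 0.0257). Il6 was 6.52 and 2.86 in WT(LPS + IL-10), against 7.29 and 6.05 in WT(LPS), with the higher value of each pair in WT donor 1. The Il6 difference between genotypes in LPS was 3.36 ± 0.99 and did not pass (adjusted p = 0.191), but it passed without WT donor 1, at 3.97 (adjusted p = 0.0114), and in the 2 fits without a WT(LPS + IL-10) array. With 1 array left out the 4 calls of Il15, Il15ra and Il6 passed in 0 to 2 of 8 fits each. Those of Il15 and Il15ra were lost in the smaller fit without WT donor 1. There the Il15ra difference in LPS was 2.01. The falls of Il15 and Il15ra with IL-10, in which that donor has no part, kept their size. The only other receptor gene of the 27 to pass was Csf3r, the G-CSF receptor, which rose by 1.09 with IL-10 in miR-155-/- cells (SE 0.12, adjusted p = 0.00886), with 1.08 ± 0.12 in WT cells (adjusted p = 0.0623). It passed in 4 of 8 fits with 1 array left out.

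Socs1, the inhibitor that binds JAK2 and TYK2 and a known miR-155 target, has 1 probe set, and no detection calls were used here, so that whether values this low are above background is not known. It was 4.28 and 3.58 with IL-10 in miR-155-/- cells, against 3.28 and 3.69 in WT cells. With LPS alone it was 4.06 and 3.91 in miR-155-/- cells, against 3.38 and 3.42 in WT cells. In LPS alone the genotypes did not overlap, and the difference was 0.58 ± 0.25 (1.50-fold, adjusted p = 0.361), which did not pass. With IL-10 the genotypes overlapped. The change with IL-10 was -0.06 ± 0.22 in miR-155-/- cells and 0.08 ± 0.22 in WT cells, with opposite signs in the donors of each genotype.

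Cish, whose product CIS blocks STAT5 docking sites, also has 1 probe set. With IL-10 it was 4.02 and 3.65 in miR-155-/- cells, against 3.54 and 3.45 in WT cells. With LPS alone it was 3.01 and 3.98 in miR-155-/- cells, against 3.50 and 3.52 in WT cells. The 2 miR-155-/-(LPS) arrays lay apart by more than any group difference. No comparison gave an unadjusted p under 0.05, and the interval of the difference between genotypes was -0.78 to 0.77 in LPS and -0.44 to 1.11 with IL-10.

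Socs2, a growth hormone feedback inhibitor, was 2.59 and 2.21 with IL-10 in miR-155-/- cells, against 7.00 and 1.85 in WT cells. With LPS alone it was 1.82 and 2.72 in miR-155-/- cells, against 6.45 and 3.15 in WT cells. Both high values belonged to WT donor 1, the donor with high stromal markers, whose part in them was not tested. The mean of its 2 arrays was 6.73, and that of the other 3 donors 2.20 to 2.50. The genotype difference in LPS was -2.53 with a 95% interval of -6.11 to 1.04 (adjusted p = 0.532), and without WT donor 1 it was -0.88 (adjusted p = 0.436). With IL-10 it was -2.02 over all donors (adjusted p = 0.719) and 0.55 without that donor (adjusted p = 0.546). The other 5 Socs2 probe sets had means of 1.73 to 2.07 and passed in no comparison.

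**Figure D5:**
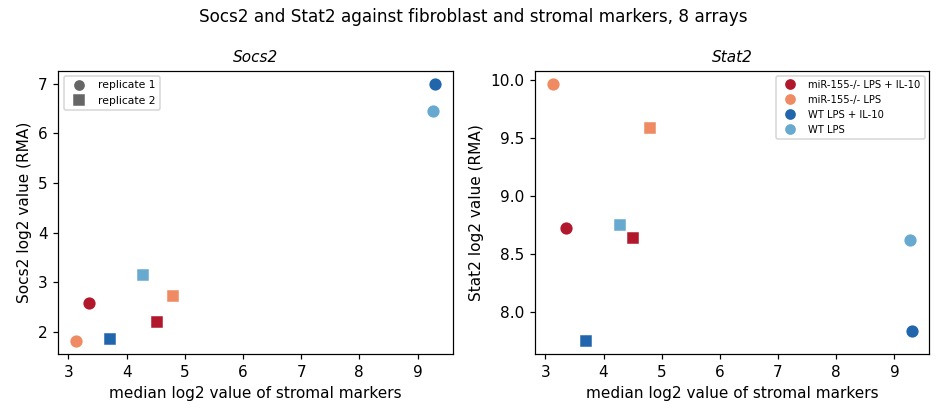
Log2 RMA value of Socs2 (left panel) and Stat2 (right panel) against the median log2 value of 12 fibroblast and stromal markers on each of 8 arrays, coloured by group, with circles for replicate 1 and squares for replicate 2. The 2 arrays of WT donor 1, with marker medians of 9.29 and 9.26, had the 2 highest Socs2 values, while their Stat2 values lay beside those of WT donor 2.

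Socs3, the inhibitor that STAT3 induces in macrophages and the best known SOCS target of IL-10, was 11.37 and 11.49 with IL-10 in miR-155-/- cells, against 11.39 and 11.39 with LPS alone. It was 11.49 and 11.69 with IL-10 in WT cells, against 10.90 and 11.03 with LPS alone. The WT(LPS) arrays were the lowest. The change with IL-10 was 0.04 ± 0.12 in miR-155-/- cells (adjusted p = 0.91) and 0.62 ± 0.12 in WT cells (adjusted p = 0.168). The difference between them was -0.58 (adjusted p = 0.362). The second probe set likewise gave 0.04 ± 0.12 in miR-155-/- cells, but the third, with a mean of 9.11, read higher with IL-10 in all 4 donors, by 0.51 and 0.55 in miR-155-/- cells (adjusted p = 0.103) and 0.78 and 1.22 in WT cells (adjusted p = 0.0895). Stat3 was 9.45 and 9.50 with IL-10 in miR-155-/- cells, against 9.18 and 9.10 with LPS alone, and 9.65 and 10.12 in WT(LPS + IL-10), against 9.24 and 9.06 in WT(LPS). Its change was 0.34 ± 0.17 in miR-155-/- cells (adjusted p = 0.364) and 0.73 ± 0.17 in WT cells (adjusted p = 0.252). Of the 5 other SOCS genes and the 12 other inhibitors measured, 0 passed in limma in any comparison. At most 2 of each list had an unadjusted p under 0.05 in a comparison, where 8.95% to 17.3% of all probe sets did.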

How the data were processed

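RNA of 8 BMDM cultures was amplified, biotin-labelled and hybridised to Affymetrix arrays. The authors deposited 1 table of log2 values for 45101 probe sets, made by RMA (background correction, quantile normalization and probe summary) in the affy package, with limma named for testing (versions not given in the sources used here). RMA forces a common distribution on the arrays, so a global shift would not be seen, and no detection calls were used here. Every array column belonged to a sample (0 did not).

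Groups and donors came from the labels, a donor being a genotype with a replicate number. After leaving out 64 control probe sets and 29 of sex-linked genes, 45008 were fitted with limma 3.58.1 (R 4.3.3) as 4 group means over all 8 arrays, with donor as a random block as in the study's methods (correlation 0.24), and p-values were two-sided and Benjamini-Hochberg adjusted over all probe sets. The pairing comes from the replicate numbers in the labels, and arrays of the same donor deviated together from their group means (correlation 0.754 in WT and 0.23 in miR-155-/-). Intervals are 95% intervals of a fitted difference and rest on these cultures alone. They use limma's standard error, which draws on the spread of all probe sets and on 1 donor correlation for all. They do not measure each gene's own spread between donors. Probe sets were named through the platform annotation (34958 with 1 symbol, 932 with several, 9211 with none), and some listed genes are not reported here.

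The 9 genes and the lists of pathway genes and markers were chosen with earlier results of these data known, so their counts are descriptions, given beside the share of all probe sets. Named were the 9 genes, fixed relatives (Stat3, Irf9, Socs3, Jak1, Jak3, Tyk2) and list genes that passed in any comparison. Ifnar1, Ifnb1, Usp18, Csf2rb, Il4, Il13 and Arg1 were added after their values were seen. The fit was tested on simulated data. Alternatives were other blocks, filters, variance models, array weights, normalizations and sample sets, each array left out in turn, WT donor 1 left out, and the mean over probe sets. Their use for list genes was added after seeing the data. Promoter and miRNA sequences came from RefSeq (GRCm38.p6) and were searched with Python 3.11.15.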

Additional observations from a re-analysis of the deposited data

How the results depend on the processing

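Of 817 refits of the 9 genes' fold changes (45 results under up to 19 settings), 741 kept their direction and side of the threshold, 29 lost and 6 gained a call, and 41 changed sign, none of them in a called value. Only Stat2 and Jak2, in 2 comparisons each, had a call to lose, so all 29 losses were theirs. Most of the 741 were of values not called in the main fit, and the 817 are not the base for the losses. With donor as a fixed replicate block, and with no replicate block, 1 of the 9 genes, Stat2, passed with IL-10 in miR-155-/- cells in place of 2 (adjusted p of Jak2 0.0573 and 0.0693), and neither block setting changed another count of the 9 genes. A fixed block cannot be set between genotypes, since each donor has 1 genotype. The selection by unadjusted p and fold also left 1, Stat2. With only the arrays compared, 0 passed in miR-155-/-(LPS) against WT(LPS) and 1, Jak2, with IL-10 in miR-155-/- cells, and the same counts came without WT donor 1. Without that donor, and with only 1 genotype in the fit, no donor correlation could be estimated, and the block was left out. With probe sets of mean log2 of at least 6, which 5 of the 9 genes pass, 4 changed with IL-10 in miR-155-/- cells (Stat2, Stat5b, Stat6, Jak2), and 1, Stat2, with IL-10 in WT cells and between genotypes with IL-10. That fit called 3183, 327 and 216 probe sets in these comparisons, out of fewer probe sets than the main fit, which called 1207, 14 and 32. An intensity trend with robust hyperparameters gave 1, Stat2, with IL-10 in WT cells and between genotypes with IL-10, where 244 and 295 probe sets passed. With 1 array left out (its partner assumed to vary like the other groups), 0 to 1 passed in miR-155-/-(LPS) against WT(LPS), Jak2 without either WT(LPS + IL-10) array, and 0 to 2 with IL-10 in miR-155-/- cells, with 0 without miR-155-/-(LPS) replicate 1 or either miR-155-/-(LPS + IL-10) array. Fewer samples remain in these fits, and the cause of the other changes was not tested. In the counts that follow, 3183 and 327 came from the fit with mean log2 of at least 6, which held fewer probe sets. Over all probe sets 659 passed in miR-155-/-(LPS) against WT(LPS) (77 to 1574 under the other settings), 1207 with IL-10 in miR-155-/- cells (492 to 3183), 14 with IL-10 in WT cells (0 to 327), 32 between genotypes with IL-10 (2 to 295) and 15 in the difference of IL-10 effects (1 to 105). With 1 array left out these counts were 53 to 478, 112 to 815, 0, 2 to 13 and 1 to 2. For the named list genes, 722 of 945 refits kept direction and side, 175 lost and 42 gained a call, and 6 changed sign.

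The values that changed sign follow. Arrays centred on medians gave Cish 0.035 and Stat3 0.028 in miR-155-/-(LPS) against WT(LPS), and Stat5b 0.0090 in miR-155-/-(LPS + IL-10) against WT(LPS + IL-10), and a second quantile normalization gave Cish 0.0085. Without WT donor 1, Stat6 was -0.066 and Jak2 -0.24 with IL-10 in WT cells, Stat5b 0.0014 and Socs2 0.55 between genotypes with IL-10, and Stat3 0.077 between genotypes in LPS. Means over probe sets gave, with IL-10 in WT cells, Socs2 0.055 and Jak2 -0.051, Stat5b 0.15 between genotypes in LPS, Socs2 -0.013 with IL-10 in miR-155-/- cells, and -0.17 for Stat5b and -0.068 for Socs2 in the difference of IL-10 effects. With 1 array left out, the ranges that crossed 0 were, with IL-10 in WT cells, Cish -0.058 to 0.037, Jak2 -0.13 to 0.21, Socs1 -0.12 to 0.28, Socs2 -2.63 to 1.88, Stat4 -0.084 to 0.19, Stat6 -0.16 to 0.23 and Il12b -0.032 to 0.22. With IL-10 in miR-155-/- cells they were Cish -0.20 to 0.87, Socs1 -0.39 to 0.28, Socs2 -0.37 to 0.64, Stat4 -0.37 to 0.11 and Socs3 -0.016 to 0.10. Between genotypes in LPS they were Cish -0.55 to 0.53 and Stat3 -0.16 to 0.13, and with IL-10 Socs2 -4.28 to 0.23, Stat5b -0.10 to 0.044 and Stat6 -0.29 to 0.0015. In the difference of IL-10 effects they were Cish -0.19 to 0.88, Socs1 -0.47 to 0.20, Socs2 -1.75 to 2.76, Stat4 -0.43 to 0.060 and Stat5a -0.68 to 0.10.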

Other observations

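The genes whose values followed each of the 9 most closely over the 8 arrays were drawn from 1873 genes with a mean log2 of at least 6 and an SD of at least 0.3. For Stat2 these were Parp11 (r = 0.999) and Trafd1 (r = 0.994), for Jak2 Coil (0.979) and Gstt1 (0.977), for Stat6 Trim28 (0.99) and Ppp1r16a (0.981), for Stat5a Sema6b (0.963) and Msl3 (0.954) and for Stat5b B4galt5 (0.974) and the IL-4 receptor gene Il4ra (0.973). Socs1 was followed by Spdl1 (0.954) and Vill (0.915), Socs2 by Efnb1 (0.984) and Fkbp7 (0.98), Stat4 by Haus2 (0.874) and Tmem87a (0.818), and Cish by Cd244a (0.75) and Cip2a (0.731). These are highest of many over 8 arrays that share donors and treatments, and are descriptions only.

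Stat5b, Stat5a and Stat3 are neighbours on chromosome 11 in RefSeq. On the brightest probe sets each of the 3 read higher with IL-10 in all 4 donors, with none past the threshold over all probe sets. The changes were 0.20 to 0.38 for Stat5b, 0.52 to 1.18 for Stat5a and 0.27 to 1.06 for Stat3. The second Stat5b probe set read lower with IL-10 in both miR-155-/- donors (-0.24 and -0.20) and in WT donor 2 (-0.03). The second Stat5a probe set read lower in WT donor 2 (-0.16). A part of their shared location was not tested.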
